A study of Mus musculus with 48 samples.

Results

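The clonotypes described here were found in the lacrimal gland (LG) of a mouse and also in its own spleen. A clonotype was a set of immunoglobulin heavy-chain sequences with the same IGHV gene, IGHJ gene and amino acid sequence of the third heavy-chain complementarity-determining region (HCDR3), and it was counted as shared when at least 1 HCDR3 nucleotide string was identical in both tissues of that mouse. The members were thus chosen by measured sequences, with no threshold on level or isotype. Being found in both tissues still depends on the size of a clonotype, as given below. The rule found 7591 entries of mouse and clonotype among 40605 LG entries in 24 mice, and these entries were 7284 distinct clonotypes. The other 33014 entries are called LG-only clonotypes. All LG and spleen libraries together held 3182102 distinct clonotypes.

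B cell receptor (BCR) heavy chains were sequenced from the LG and the spleen of B6 mice. In the NOD-FMT group, 10 mice that were 5 weeks old at the start were gavaged daily for 3 weeks with the fecal microbiota of 30 donors, male NOD.B10.H2b animals over 20 weeks of age, a strain that develops autoimmune dry eye on its own, after 7 days of ampicillin, vancomycin and metronidazole in the drinking water. In the PBS-T group, 9 mice received PBS instead on the same schedule, and 5 untreated B6 mice (NC) served as the BCR control group. The methods describe 7 days of mixing feces between cages, then the antibiotics, for the mice before gavage. They name no gavaged group that was left out. The age of the NC mice is not given in the sources used here. Antibiotics, gavage and any difference in age, housing or library preparation between the NC and the gavaged mice cannot be told apart.

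The LG is an exocrine gland of the eye whose plasma cells secrete IgA into the tear film. Each developing B cell joins V, D and J segments with nucleotides trimmed and added at the joints, so an identical HCDR3 nucleotide string in both tissues of a mouse is the usual sign of descent from a common B cell, whereas the same amino acids can also be encoded by strings that arose separately. After activation a B cell can switch from IgM to IgG or IgA and collects mutations in its V gene, and its descendants travel between mucosal tissues, blood and spleen.

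One count was 1 consensus sequence built from reads that shared a molecular identifier. Any nucleotide sequence that occurred in at least 3 mice within a tissue was removed from every library of that tissue. The rule follows the wording of the study's methods on contamination between libraries and was applied here to every mouse, also to the one that held most copies, whereas the study lists far fewer sequences as removed, so its step was not the same. Under an alternative chosen after seeing the data, which kept such a sequence in the mouse that held most of its counts, 0.0205% to 1.39% of LG counts and 1.06% to 7.19% of spleen counts were removed, and every call made on the summary results below was the same. The LG libraries then held 40105 to 264365 counts (median 78427) and the spleen libraries 71859 (PBS-T mouse 6) to 2032338 (median 388515). Some libraries stood apart from the rest. The LG of PBS-T mouse 5 held 17213 clonotypes where the median LG held 882.5, and 39.8% of its counts had been removed. The LG of NC mouse 2 shared 473 clonotypes with the LG of NC mouse 3, whereas the median over the other pairs of glands was 2 and the highest was 302, between PBS-T mouse 5 and NC mouse 3. Of the 371 clonotypes that NC mouse 3 shared between LG and spleen, 296 were also in the LG of NC mouse 2. The spleen of PBS-T mouse 6 lost 66.6% of its counts to the removal. Results that the PBS-T mouse 5 or NC mouse 2 gland changed are given with and without it, and the main ranges with an end at PBS-T mouse 6 are given also without it. In 11 LG libraries (6 NOD-FMT, 4 PBS-T and 1 NC), the labels said that files had been merged, and values within the merged and the other libraries are given beside the main calls that differed between them.

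The HCDR3 strings show what was matched. The first set holds the 3 shared clonotypes with the highest percent of LG counts in each group, each given as the string that carried most LG counts and was also read in the spleen of the same mouse (5′ to 3′, all in lower case).
NOD-FMT 5, IGHV1-72 and IGHJ3: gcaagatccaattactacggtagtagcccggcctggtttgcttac
NOD-FMT 4, IGHV5-16 and IGHJ4, AIYYYGSSYAMDY: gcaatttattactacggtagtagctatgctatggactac
NOD-FMT 6, IGHV7-3 and IGHJ2, ARYTPLGSYFDY: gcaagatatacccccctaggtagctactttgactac
PBS-T 2, IGHV1-9 and IGHJ2, YYGSSFDY: tactacggtagtagctttgactac
PBS-T 6, IGHV1-53 and IGHJ2, AKRLYDY: gcaaagcgtctctacgactac
PBS-T 2, IGHV1-9 and IGHJ2, ARGGNYFDY: gcaagagggggaaactactttgactac
NC 2, IGHV11-2 and IGHJ2, MRWGGDGFDY: atgagatgggggggggacggctttgactac
NC 2, IGHV1-53 and IGHJ4, ARRGWLRLYAMDY: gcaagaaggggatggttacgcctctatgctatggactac
NC 1, IGHV1-53 and IGHJ1, ATNWDRYFDV: gcaaccaactgggacaggtacttcgatgtc

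The second set is 1 amino acid clonotype, IGHV1-76 and IGHJ2 with ARRGDGYYFDY, which was shared between LG and spleen in 10 mice. It is shown because the 10 mice gave 9 different strings. That each string was found in both tissues of its mouse follows from the rule of membership. Capitals mark bases that differ from the commonest base at that position among the 10 strings.
NOD-FMT 2: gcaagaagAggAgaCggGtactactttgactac
NOD-FMT 3: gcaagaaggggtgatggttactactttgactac
NOD-FMT 4: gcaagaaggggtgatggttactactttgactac
NOD-FMT 5: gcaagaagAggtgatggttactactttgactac
NOD-FMT 6: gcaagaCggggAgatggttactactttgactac
PBS-T 1: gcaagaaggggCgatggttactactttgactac
PBS-T 3: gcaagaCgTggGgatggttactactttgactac
PBS-T 4: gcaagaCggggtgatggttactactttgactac
PBS-T 6: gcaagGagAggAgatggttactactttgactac
PBS-T 8: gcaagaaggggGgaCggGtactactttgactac

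The third set is IGHV6-3 and IGHJ3 with TGDGFAY, which was shared between LG and spleen in 9 mice, all of the NOD-FMT group. Capitals have the same meaning within this set.
NOD-FMT 1: acaggGgatgggtttgcttac
NOD-FMT 2: acaggGgaCgggtttgcttac
NOD-FMT 4: acaggcgaCgggtttgcttac
NOD-FMT 5: acaggTgaCgggtttgcttac
NOD-FMT 6: acGggTgaCgggtttgcttac
NOD-FMT 7: acaggAgatggAtttgcttac
NOD-FMT 8: acaggAgatgggtttgcttac
NOD-FMT 9: acaggcgatgggtttgcttac
NOD-FMT 10: acaggcgatgggtttgcttac

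The strings shown are those with most LG counts among the strings found in both tissues, 9 different ones for the 10 mice with ARRGDGYYFDY and 8 for the 9 mice with TGDGFAY. A mouse could hold further strings of the same clonotype, up to 14 in a spleen for ARRGDGYYFDY and up to 5 for TGDGFAY, and 3 of 45 pairs of mice with ARRGDGYYFDY and 16 of 36 pairs with TGDGFAY had in common a string found in both tissues. In contrast, IGHV7-1 and IGHJ1 with ARDYYGSSYWYFDV, which was shared in 11 mice of all 3 groups, had 1 string of 42 bases that was found in both tissues, and it was the same in every mouse.
IGHV7-1 ARDYYGSSYWYFDV: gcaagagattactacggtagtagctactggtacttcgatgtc

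LG clonotypes were matched far more often in the own spleen than in the spleen of another mouse. The number found in the own spleen was 130 to 685, and the median number over the 23 other spleens was 3 to 16 in every mouse but PBS-T mouse 5, where it was 51. The own spleen held the most in 23 of 24 mice. The exception was NC mouse 2, whose LG matched 188 clonotypes in its own spleen and 301 in the spleen of NC mouse 3. Of those 188 clonotypes, 7 were also in the LG of NC mouse 3, and the shared clonotypes of NC mouse 2 that were absent from that gland held 82.4% of its LG counts. PBS-T mouse 5 had the next narrowest margin, with 255 clonotypes in its own spleen against 171 in the spleen of NOD-FMT mouse 3. This comparison is a description without a test, since the own spleen defined the members. Sequences found in at least 3 mice within a tissue had been removed first, which can lower matches to other mice. Numbers for other spleens without the removal are not given.

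**Figure D1:**
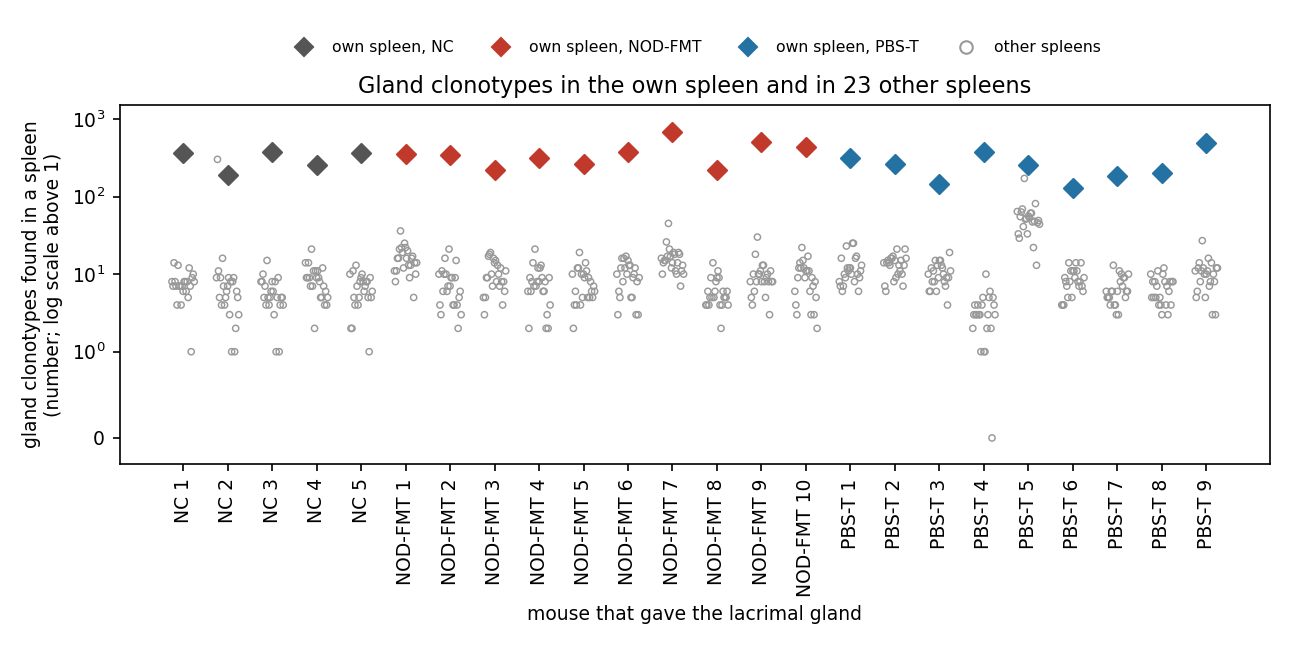
Number of LG clonotypes found in the own spleen (diamonds) and in each of the 23 other spleens (circles) for each of 24 mice, on a scale that is logarithmic above 1. The diamonds lie between 130 and 685 and above all circles of the same mouse, except in NC mouse 2, where the spleen of NC mouse 3 gave 301 against 188.

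Membership had an edge on both sides. A median of 13.5 further LG clonotypes per mouse (range 5 to 114) matched a spleen clonotype in IGHV, IGHJ and HCDR3 amino acids without a common nucleotide string and were left out. A median of 45 LG clonotypes per mouse (range 16 to 738, highest in NOD-FMT mouse 7) had an HCDR3 string and IGHJ gene found in the own spleen under another IGHV name and were left out as well. In 4 mice these outnumbered the shared clonotypes, with 523 against 349 in NOD-FMT mouse 1, 391 against 345 in mouse 2, 738 against 685 in mouse 7 and 534 against 255 in PBS-T mouse 5. Because of these counts, results that set shared against LG-only clonotypes were also run without these clonotypes, a choice made after seeing the data. Just inside, a median of 12.3% of the shared clonotypes (range 7.03% to 27.8%) were seen with 1 spleen count. A median of 78.1% of the shared clonotypes (range 63.4% to 85.9%) had at least 1 identical full-length sequence in both tissues.

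Shared clonotypes were under 50% of LG clonotypes in 23 of 24 mice, the exception being PBS-T mouse 4 at 59.1%, and they held most LG counts in every mouse but PBS-T mouse 5. In NC mice they numbered 361, 188, 371, 254 and 360. The NOD-FMT mice had 220 to 685 (median 347) and the PBS-T mice 130 to 486 (median 255), or 143 to 486 without mouse 6. On the log2 scale the mean number was 8.45 ± 0.516 (SD, n = 10) in NOD-FMT, 7.90 ± 0.627 (n = 9) in PBS-T and 8.21 ± 0.432 (n = 5) in NC. The NOD-FMT and PBS-T ranges overlapped, and their difference of 0.55 did not pass the test (p = 0.0519, adjusted p = 0.260, two-sided exact permutation test over mice, Benjamini-Hochberg over 15 group tests).

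As a share of all LG clonotypes, they made up 32.2% ± 8.80 in NOD-FMT, 31.7% ± 18.2 in PBS-T and 31.2% ± 9.38 in NC (mean ± SD). NOD-FMT exceeded PBS-T by 0.543 percentage points (adjusted p = 0.967, exact permutation test) and the difference turned to -3.23 without PBS-T mouse 5, where 1.48% of LG clonotypes were shared. Where the V gene name was not needed for the match, the difference was 8.93 and did not pass the test. Their share of LG counts was 78.4% to 94.3% in NOD-FMT mice (median 90.6%), 79.8% to 91.6% in NC mice (median 85.8%) and 75.2% to 96.7% in PBS-T mice other than mouse 5, or 77.4% to 96.7% also without mouse 6. In PBS-T mouse 5 it was 3.29% of 216868 counts (95% Wilson interval 3.22% to 3.37%), and without the removal of sequences found in several mice it was 2.36%. With them kept in the mouse with most of their counts it was 2.01%. Matching without the V gene name gave 7.56% in this mouse. NOD-FMT exceeded PBS-T by 10.5 percentage points (adjusted p = 0.781, exact permutation test) and by 1.18 without PBS-T mouse 5. None of the 9 tests of number or share between pairs of groups had an adjusted p under 0.05.

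**Figure D2:**
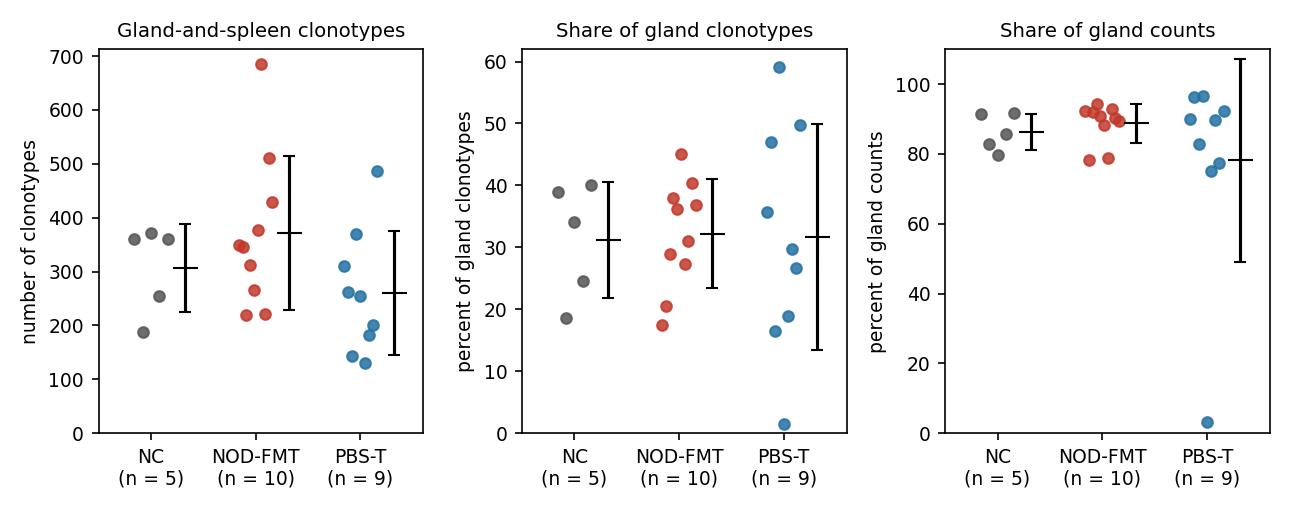
Number of shared clonotypes, their percent of LG clonotypes and their percent of LG counts in each mouse (points) by group, with mean ± SD (bars). The groups overlap in all 3 panels, and 1 PBS-T mouse lies at 1.48% of clonotypes and 3.29% of counts.

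In the spleen the same clonotypes were few and held a larger share of counts than of clonotypes. They were 0.0370% to 0.565% of spleen clonotypes (0.504% at most without PBS-T mouse 6) and held 4.90% to 46.7% of spleen counts (median 10.9%). The highest share, 46.7%, was in PBS-T mouse 6, whose spleen had lost most counts to the removal, and the next was 26.1% in PBS-T mouse 9. When sequences found in several mice were kept in the mouse with most of their counts, the share in PBS-T mouse 6 was 81.7%. A shared clonotype had a median of 3 to 43.5 spleen counts in each mouse (14.5 in the median mouse), and another spleen clonotype had 1. The means were 126 and 2.53 in the median mouse. Among the other spleen clonotypes, 85.9% were seen with 1 count.

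Larger LG clonotypes were found in the own spleen more often. Since finding a clonotype in both tissues depends on its size, these values are a description. Of the 10 largest clonotypes of each LG, 8 to 10 were in the own spleen in every mouse but PBS-T mouse 5, where 2 were. The share was a median of 80.6% for LG ranks 11 to 100 and 26.9% for ranks above 100. By LG counts it was 7.86% of clonotypes with 1 count, 35.5% of those with 2 to 9, 63.2% of those with 10 to 99 and 80.5% of those with 100 or more. The median shared clonotype had 30.8 LG counts and the median LG-only clonotype 1.

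**Figure D3:**
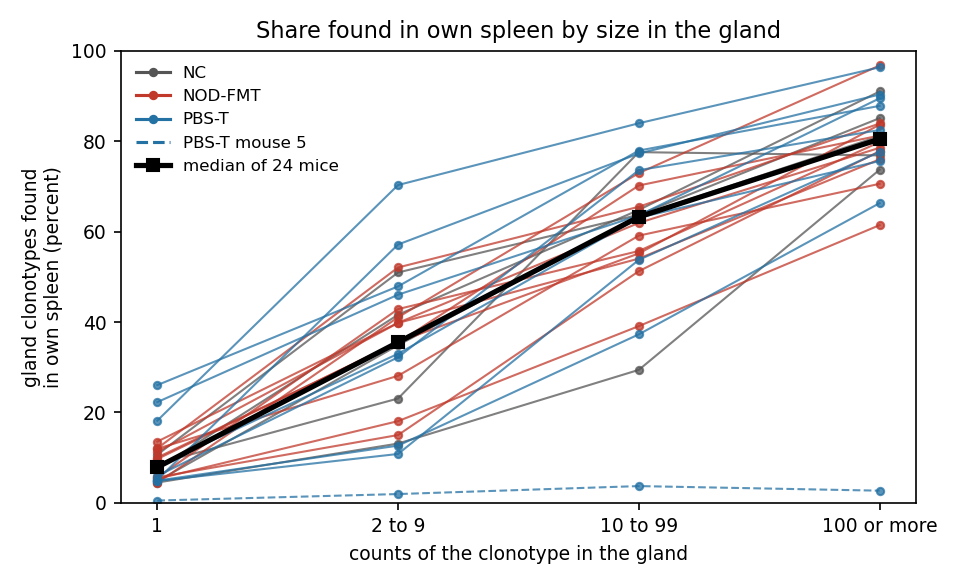
Percent of LG clonotypes found in the own spleen by their LG counts, with 1 line per mouse and the median of 24 mice in black. The median rises from 7.86% at 1 count to 80.5% at 100 counts or more, and the line of PBS-T mouse 5 stays under 4%.

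Size in one tissue told little about size in the other. Spearman's rho between LG and spleen counts across the shared clonotypes of a mouse was 0.0257 to 0.481, or 0.0651 to 0.481 without PBS-T mouse 6 (median 0.282, 130 to 685 clonotypes per mouse, which share both libraries). The median shared clonotype ranked 191 in the LG and 1952.5 in the spleen. Conversely, 2 to 10 of the 10 largest spleen clonotypes (median 5) and 14 to 50 of the 100 largest (median 26) were shared with the LG.

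The largest shared clonotypes of the LG held smaller shares of the spleen, where they still ranked above the median shared clonotype. IGHV1-72 with IGHJ3 held 26.3% of LG counts in NOD-FMT mouse 5 (95% Wilson interval 26.1% to 26.6%) and 0.117% of its spleen counts (0.106% to 0.128%, rank 78). It was 98.3% IgA in the LG and 94.3% in the spleen. IGHV5-16 with AIYYYGSSYAMDY held 22.4% of LG counts in NOD-FMT mouse 4 and ranked 459 in the spleen. IGHV7-3 with ARYTPLGSYFDY held 16.5% in NOD-FMT mouse 6, where it was entirely IgA, while its 218 spleen counts were 45.9% IgA with IgM the largest class.

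In PBS-T mice the largest was IGHV1-9 with YYGSSFDY at 29.0% of the LG counts of mouse 2 (28.7% to 29.3%). It was 0.0468% IgA and mostly IgG in the LG, and mostly IgM in the spleen, where it had 131 counts. The same gland held IGHV1-9 with ARGGNYFDY at 22.4%, which was 98.3% IgA there and ranked 22 in the spleen. IGHV1-53 with AKRLYDY held 23.5% of LG counts in mouse 6 and ranked 16 in the spleen. Of the NC clonotypes, IGHV11-2 with MRWGGDGFDY held 16.5% of LG counts in mouse 2 with 22 spleen counts, IGHV1-53 with ARRGWLRLYAMDY held 15.4% in the same gland and ranked 19 in the spleen, and IGHV1-53 with ATNWDRYFDV held 15.0% in mouse 1 with 958 spleen counts. Mean V mutations per count in the LG were under 0.3 in 8 of these 9 clonotypes and 1.63 in ARGGNYFDY.

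Shared clonotypes were mostly IgA in the gland and, at a lower share, in the spleen, whose other clonotypes had little IgA. The mean IgA share of a clonotype's LG counts was 82.3% to 90.8% over NOD-FMT mice (median 84.3%). In NC mice it was 85.1%, 84.5%, 89.99%, 72.9% and 88.5%. Over PBS-T mice it was 31.1% to 89.8% (median 82.2%), with PBS-T mice 9, 2, 8 and 3 lowest. The same clonotypes had an IgA share of 22.6% to 77.0% in the spleen (median 61.3%), and the other spleen clonotypes 1.32% to 7.27% (median 2.41%).

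The IgA share of shared clonotypes was higher in the LG than in the spleen in all 24 mice. The mean difference was 19.0 percentage points ± 6.53 (SD, n = 24, p = 1.19e-07, the smallest that the test can give, adjusted p = 1.19e-06, two-sided exact sign-flip permutation test over mice, Benjamini-Hochberg over 20 tests). It was 9.17 to 15.3 in NC, 20.0 to 27.7 in NOD-FMT and 8.52 to 30.4 in PBS-T, where it was at most 24.3 without mouse 6. The NC and NOD-FMT ranges did not overlap, and that difference between groups was not tested.

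By dominant isotype, the class that held most of a clonotype's counts, 64.8% to 89.4% of the clonotypes that were IgA in the LG were IgA in the spleen (median 73.8%), or 68.7% to 89.4% without PBS-T mouse 6. A median of 13.8% were IgM there, 9.40% were IgG, and 39.5% had at least 1 IgM count. Clonotypes that were IgM in the LG were IgM in the spleen as well at a median of 91.3%. Pooled over mice, the combination of IgA in both tissues made up 73.1% of entries in NC (1121), 62.0% in NOD-FMT (2304) and 50.9% in PBS-T (1191). Over single mice it was 63.0% to 77.9%, 56.8% to 72.1% and 22.6% to 75.9%. Without PBS-T mouse 9 the pooled PBS-T value was 58.3%. IgM in both tissues made up 7.76% in NC, 5.95% in NOD-FMT and 22.6% in PBS-T (530), where mouse 9 gave 252 and mouse 2 gave 121 of these entries. Without PBS-T mouse 9 it was 15.0%, and over single PBS-T mice it was 2.16% to 51.9% (median 10.8%). IgA in the LG with IgM in the spleen made up 6.91% in NC, 12.8% in NOD-FMT and 9.53% in PBS-T. Over single mice this was 4.79% to 8.63%, 8.65% to 17.1% and 6.38% to 22.3%, the last in PBS-T mouse 6. Differences between groups in these combinations were not tested.

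Within the LG, shared clonotypes had a higher IgA share than LG-only clonotypes by 7.18 percentage points ± 11.8 (higher in 17 of 24 mice, p = 0.00550, adjusted p = 0.00999, exact sign-flip test). The difference was -7.07 to 23.9 in NOD-FMT mice and -4.91 to 36.9 in PBS-T mice. It was 5.90, 1.05, 5.09, 12.3 and 2.61 in the NC mice. This call was lost under several settings. It was 5.21 with no removal of sequences found in several mice and 2.49 with clonotypes weighted by counts. It was 0.0668 among clonotypes of at least 5 LG counts (adjusted p = 0.977). In the 11 merged libraries it was 15.1 (adjusted p = 0.0205), and in the 13 others it was 0.513 (adjusted p = 0.750, exact sign-flip tests). The contrast did not differ between NOD-FMT and PBS-T beyond its spread (difference -4.15, adjusted p = 0.793, exact permutation test).

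V gene mutations of shared clonotypes were fewer in the LG than in the spleen in all 24 mice. The mean number per clonotype was 1.73 ± 0.688 in the LG and 2.20 ± 0.699 in the spleen, a difference of -0.477 ± 0.187 (p = 1.19e-07, adjusted p = 1.19e-06, exact sign-flip test). It was -0.577 to -0.210 in NC, -0.912 to -0.317 in NOD-FMT and -0.859 to -0.0972 in PBS-T. Among clonotypes that were IgA in both tissues, counting IgA sequences alone, the means were 1.93 in the LG and 2.36 in the spleen. The other spleen clonotypes had 0.327 to 1.73 (median 0.627). A median of 57.9% of shared clonotypes had more mutations in the spleen, 29.3% had more in the LG and 11.7% had equal means.

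In the LG, NC mice had the most mutated shared clonotypes. Their means were 2.54, 2.97, 2.94, 2.98 and 2.84, above the 0.903 to 2.51 of the NOD-FMT mice and the 1.07 to 1.84 of the PBS-T mice. Germline-containing clonotypes, which hold at least 1 sequence without a V mutation, were 41.2% to 47.1% of the shared clonotypes in NC glands, 47.6% to 69.9% in NOD-FMT glands and 53.1% to 72.2% in PBS-T glands (55.2% to 72.2% without mouse 6). These levels were compared between groups without a test.

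Against LG-only clonotypes, the direction of the mutation contrast differed between the untreated and the gavaged mice. Shared minus LG-only was 0.479, 0.679, 0.233, 0.265 and 0.310 in the NC mice. It was -1.13 to 0.158 in NOD-FMT mice (negative in 9 of 10, mean -0.591, adjusted p = 0.00781, exact sign-flip test). It was -2.19 to 0.111 in PBS-T mice (negative in 8 of 9, mean -0.952, adjusted p = 0.0130, exact sign-flip test). With 5 NC mice the sign-flip test cannot give a p under 0.05. The difference of the contrast between NOD-FMT and NC was -0.983 (adjusted p = 0.00999, exact permutation test) and that between PBS-T and NC was -1.34 (adjusted p = 0.0375).

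These calls had limits. Among clonotypes of at least 5 LG counts the differences from NC were -0.853 and -0.965 (adjusted p = 0.0637 for both), and with clonotypes weighted by counts they were -0.191 and -0.319 (adjusted p = 0.864 for both, exact permutation tests). In the libraries that were not merged they were -0.633 and -1.22 (adjusted p = 0.119 for both, exact permutation tests), and the merged libraries held 1 NC mouse, too few for a value. With LG clonotypes that the own spleen held under another IGHV name left out, the differences from NC were -0.637 (adjusted p = 0.260) and -1.28 (adjusted p = 0.142), and the contrast over all mice was -0.271 (adjusted p = 0.124, exact tests). Leaving out any single NC mouse raised the adjusted p of the PBS-T difference to 0.0629. The NOD-FMT difference was -1.07 to -0.912 with 1 mouse left out and kept its call in 24 of 24 such fits. Of the LG clonotypes of NC mouse 2, which had the highest contrast, 473 were also in the LG of NC mouse 3. Of these, 7 were shared with its own spleen. The contrast over all 24 mice was -0.521 ± 0.741 (adjusted p = 0.00558, exact sign-flip test), and 0.234 among clonotypes of at least 5 LG counts (adjusted p = 0.148). It was -0.856 in merged libraries (adjusted p = 0.00977) and -0.238 in the others (adjusted p = 0.347, exact sign-flip tests).

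**Figure D4:**
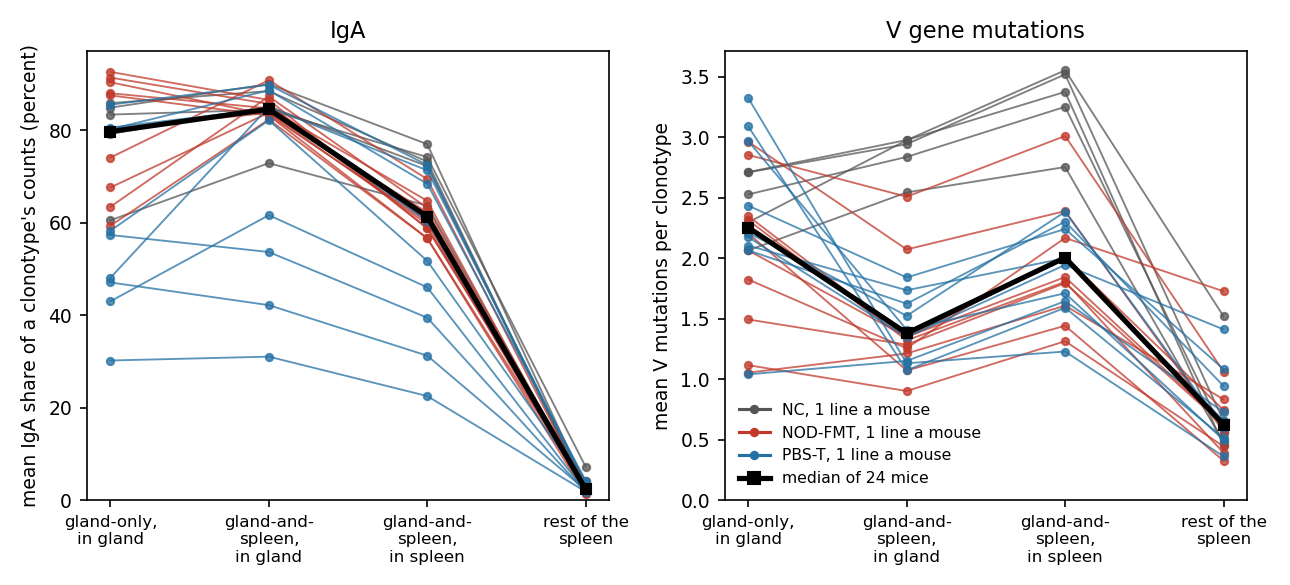
Mean IgA share of a clonotype's counts and mean V mutations per clonotype, with 1 line per mouse, for LG-only clonotypes, for shared clonotypes in the LG and in the spleen, and for the rest of the spleen. Shared clonotypes have a median IgA share of 84.6% in the LG and 61.3% in the spleen against 2.41% in the rest of the spleen, and the NC lines lie highest in mutations of shared clonotypes in the LG, while in the spleen NOD-FMT mouse 7 at 3.01 lies above NC mouse 1 at 2.75.

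HCDR3 length is given as a description without a test, since the members were matched on the HCDR3 string and a shorter string can match by coincidence more easily. The mean length was 11.4 amino acids in shared and 11.7 in LG-only clonotypes, a difference of -0.238 ± 0.319 (SD, n = 24, shorter in 19 of 24 mice). It was negative in 10 of 10 NOD-FMT mice, 4 of 5 NC mice and 5 of 9 PBS-T mice. Where an identical full-length sequence was required in both tissues it was -0.103, and without LG clonotypes found in the own spleen under another IGHV name it was -0.364.

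Of 78 IGHV and IGHJ genes with at least 100 LG clonotypes, 11 were called as used at different shares in shared and LG-only clonotypes, which is 14.1% of the genes tested (two-sided exact sign-flip permutation test over mice, Benjamini-Hochberg over genes). The 7 that were higher in shared clonotypes were 8.97% of the genes tested, and the 4 that were lower were 5.13%. Among the lower genes is IGHV3-2, which had almost no spleen clonotype to match. The IGHV and IGHJ names are part of the match that made a clonotype shared. A name more common in the spleen has more to match. The calls and p-values therefore describe the matched sets. They cannot tell a difference in gene usage apart from the match itself, and what lay behind them was not tested. IGHV6-3, called higher, made up 1.48% of LG and 2.21% of spleen entries, and IGHV1-63, called lower, 0.724% and 0.337%. IGHV1-52 (0.773% of LG and 1.98% of spleen entries) and IGHV1-55 (3.20% and 3.41%) were also called higher. So were IGHV1-80 (1.53% and 2.19%) and IGHV5-17 (1.74% and 2.39%). IGHV1-18 (2.56% and 2.36%) and IGHV3-8 (0.731% and 0.564%) were called lower. IGHV7-3 and IGHV8-5, both called higher, went the other way, with 1.89% and 0.293% of LG but 1.23% and 0.236% of spleen entries. The entry percentages pool all mice, and 17213 of the 40605 LG entries were from PBS-T mouse 5. Shares are percent of clonotypes, averaged over mice. Gene positions are given on GRCm38, and the named genes are all on the minus strand.

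IGHV6-3 (chr12:114391712-114392169) had the largest difference, with 2.97% of shared and 1.41% of LG-only clonotypes (difference 1.56 ± 1.34, higher in 22 of 24 mice, adjusted p = 8.28e-04, exact sign-flip test). IGHV1-55 (chr12:115208095-115208591) made up 4.26% of shared and 2.77% of LG-only clonotypes (adjusted p = 0.00667) and IGHV7-3 (chr12:114153180-114153644) 3.46% and 2.06% (adjusted p = 0.00888, exact sign-flip tests). The call of IGHV7-3 was kept in 15 of 17 other settings. It was lost in the merged libraries alone and in the others alone (highest adjusted p = 0.237, exact sign-flip tests). In NC mice IGHV7-3 was in 1.53% of shared and 1.77% of LG-only clonotypes, against 3.99% and 2.54% in NOD-FMT and 3.94% and 1.69% in PBS-T. IGHV8-5 was also lower in shared clonotypes in NC (0.0556% and 0.0792%), and differences between groups were not tested. IGHV1-80, IGHV5-17, IGHV8-5 and IGHV1-52 were higher by 0.776, 0.663, 0.397 and 0.327 percentage points. The call of IGHV5-17 was kept in 8 of 24 fits with 1 mouse left out and in 7 of 17 other settings. The call of IGHV1-52 was kept in 8 of 16 other settings, and its difference turned to -0.177 at LG counts of at least 5. IGHV1-18, IGHV3-8 and IGHV1-63 were lower by values of -0.879, -0.408 and -0.275. The call of IGHV3-8 was kept in 10 of 24 fits with 1 mouse left out and in 8 of 15 other settings.

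IGHV3-2 (chr12:114033803-114034233) was in 0.562% of LG-only clonotypes and in no shared clonotype. The annotation lists it as a V pseudogene, and it was named in 112 LG entries and in 4 spleen entries of 24 mice, so almost no spleen clonotype of that name existed to match. Leaving out genes with under 100 spleen clonotypes, such as IGHV3-2, 10 of 77 genes were called, 7 of them higher in shared clonotypes. IGHV6-6, IGHV1-9, IGHJ1, IGHJ2, IGHJ3 and IGHJ4 were not called, with differences of 0.338, -0.0778, 1.50, -0.209, 0.203 and -1.49 percentage points. IGHV6-6 stayed without a call in 15 of 17 other settings and was called in the rest. Over these settings its difference was 0.224 to 0.734 and its lowest adjusted p 0.0368 (exact sign-flip test). IGHV11-2 and IGHV12-3, genes known from B-1 cells that bind phosphatidylcholine, had 80 and 54 LG entries and were not tested. They had 25 shared entries in 14 mice and 6 in 5 mice.

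The number of called genes varied with the libraries used. It was 6 of 48 tested in the merged libraries and 0 of 68 in the others (exact sign-flip tests), where 9 genes had an unadjusted p under 0.05. Of the 6, 4 were also called over all mice. IGHV6-3 was higher by 2.19 percentage points in the merged libraries (adjusted p = 0.0391) and by 1.03 in the others (adjusted p = 0.183, exact sign-flip tests). IGHV1-55, IGHV1-80 and IGHV1-18 differed by 1.57, 0.894 and -1.23 in the merged libraries (adjusted p = 0.0391 for each) and by 1.43, 0.676 and -0.584 in the others (adjusted p = 0.237, 0.237 and 0.513, exact sign-flip tests). Where an identical full-length sequence was required, the difference fell to 0.308 for IGHV1-55 (adjusted p = 0.706) and 0.541 for IGHV1-80 (adjusted p = 0.0643), and at LG counts of at least 5 IGHV1-80 was at 0.291 (adjusted p = 0.543, exact sign-flip tests). Without LG clonotypes found in the own spleen under another IGHV name, 11 of 76 genes were called, 9 of them also called above. Without PBS-T mouse 5 and NC mouse 2 together, 5 genes were called.

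**Figure D5:**
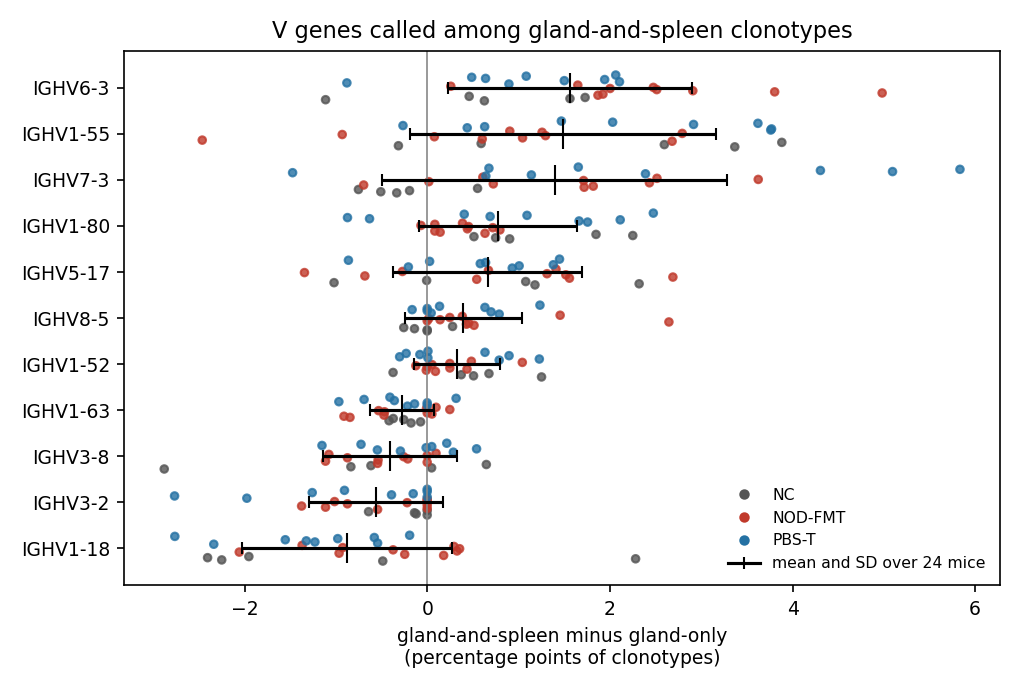
Difference in percent of clonotypes between shared and LG-only clonotypes for the 11 called V genes, with 1 point per mouse and the mean and SD over 24 mice. IGHV6-3 is at 1.56 percentage points and IGHV1-18 at -0.879, and for every gene at least 2 mice lie at 0 or on the other side of it.

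Few clonotypes were shared between LG and spleen in more than 1 mouse. Of the 7284 distinct clonotypes, 7088 were shared in 1 mouse, 143 in 2 mice, 29 in 3 and 12 in 4, and 12 were shared in 5 to 11 mice. Within a group, 104 of 3562 clonotypes (2.92%) were shared in at least 2 NOD-FMT mice, 41 of 2290 (1.79%) in at least 2 PBS-T mice and 18 of 1514 (1.19%) in at least 2 NC mice, or 9 (0.674%) without NC mouse 2. The groups differ in their number of mice, and the difference between these shares was not tested.

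The 196 clonotypes shared in 2 or more mice gave 566 pairs of mice. In 218 pairs (38.5%) both mice had an HCDR3 string in common, and 112 of the 196 clonotypes (57.1%) had no such pair. Their HCDR3s had a mean length of 9.72 amino acids, and those of clonotypes shared in 1 mouse 11.5. The removal acts on full-length sequences and lowers the number of common strings that can be seen.

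The most widely held clonotypes differed in level and isotype. IGHV7-1 with ARDYYGSSYWYFDV was shared in 11 mice (2 NC, 6 NOD-FMT and 3 PBS-T) with 1 to 39 LG counts and 6 to 143 spleen counts, and it was dominated by IgA in 9 glands and by IgM in 10 spleens. IGHV1-76 with ARRGDGYYFDY was large in spleens, where it held 0.0599% to 1.11% of counts and ranked between 2 and 173, and it was dominated by IgA in both tissues of all 10 mice. In the LG it ranged from 0.0150% of counts in PBS-T mouse 3 to 4.48% in PBS-T mouse 1. A close relative, IGHV1-76 with ARRGTGYYFDY, was shared in 7 mice (4 NOD-FMT and 3 PBS-T) and ranked 1 in the spleen of the mouse where it was highest.

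IGHV1-55 with ARGFAY was shared in 7 mice with 1 to 24 spleen counts, and IGHV3-6 with ARGGDYFFDY in 7 mice of all 3 groups with 1 to 28 LG counts. IGHV1-9 with ARGGNYFDY, the clonotype that held 22.4% of LG counts in PBS-T mouse 2, was shared in 5 mice with a median of 1525 LG counts and 855 spleen counts, and held 0.00421% of LG counts where it was lowest.

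Of the 12 clonotypes shared in 5 or more mice, 4 used IGHV6-3, and all their shared entries were in NOD-FMT mice. Among all 7591 shared entries, 233 used IGHV6-3 and 3716 were of NOD-FMT mice. A cut at 5 mice is easier to reach in a group of 10 mice than in the 5 NC mice. How many of all clonotypes shared in several mice were in NOD-FMT mice alone is not given. TGDGFAY was shared in 9 of 10 NOD-FMT mice and was present in all 10 of their spleens. Its LG counts were 31, 2, 12, 546, 1227, 1200, 11, 222 and 318 in NOD-FMT mice 1, 2, 4, 5, 6, 7, 8, 9 and 10. Its spleen counts in the same order were 7, 22, 268, 152, 323, 274, 54, 147 and 114. The LG level was highest in NOD-FMT mouse 6 (2.29% of counts, rank 7) and lowest in NOD-FMT mouse 2, and it was at least 98.7% IgA in every gland. In the spleen its IgA share was 14.3% to 81.8%. TGDGFAY was found in no gland of 5 NC and 9 PBS-T mice, in the spleen of 1 NC mouse and in no PBS-T spleen. When no sequence was removed it was also in 1 PBS-T spleen. The LG libraries held 53623 to 264365 counts in NOD-FMT, 56729 to 80575 in NC and 40105 to 216868 in PBS-T mice. Presence and absence of these clonotypes were not examined at equal depth.

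TRYFDV with IGHJ1 was shared in 6 NOD-FMT mice, and TGQGFAY and TGDSFAY with IGHJ3 in 5 each. None of these was in an NC or PBS-T gland. TRYFDV was in 2 NC and 3 PBS-T spleens, TGQGFAY in 1 and 1, and TGDSFAY in 1 NC spleen. Without the removal, TRYFDV was in 5 NC and 7 PBS-T spleens and TGQGFAY in 3 and 1, and still no NC or PBS-T gland held any of them. TGQGFAY was dominated by IgA in all 5 glands and by IgM in all 5 spleens. The LG held a median of 0.0259 V mutations per count of this clonotype, and 4 of the 5 spleens held a sequence without mutations.

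A wider pattern was chosen after these values were seen, IGHV6-3 and IGHJ3 with an HCDR3 of TG, any 2 residues and FAY. It took in 9 distinct clonotypes with 27 shared entries, at least 1 in each of the 10 NOD-FMT mice and none in NC or PBS-T mice. In the spleen the pattern was present in all 24 mice. In the LG it was present in 10 of 10 NOD-FMT, 0 of 5 NC and 2 of 9 PBS-T mice. Its shared clonotypes held 0.0119% (mouse 8) to 5.53% (mouse 6) of the LG counts of a NOD-FMT mouse. Because the pattern was taken from these mice, no test was made.

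All IGHV6-3 clonotypes shared between LG and spleen numbered 8 to 22 per NOD-FMT mouse (median 15), 2 to 14 per PBS-T mouse (median 4) and 2 to 12 per NC mouse (median 7). They held 0.0811% to 10.2% of LG counts in NOD-FMT mice (median 4.88%), 0.0475% to 2.09% in PBS-T mice (median 0.618%) and 0.0670% to 6.56% in NC mice (median 1.40%). The groups overlapped in both measures. HCDR3s of at most 7 amino acids made up 83 of 150 IGHV6-3 entries in NOD-FMT, 19 of 49 in PBS-T and 12 of 34 in NC. As a percent of shared clonotypes IGHV6-3 was 4.24% in NOD-FMT, 2.03% in PBS-T and 2.13% in NC, and among LG-only clonotypes 1.80%, 0.933% and 1.48%. The difference between groups was not tested.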

How the data were processed

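The authors prepared the libraries with unique molecular identifiers, merged read pairs, kept reads of high base quality, clustered reads by identifier into consensus sequences and annotated V and J genes, HCDR3, isotype and V mutations with IgBLAST and IMGT references, keeping productive sequences. The deposited tables give each sequence a count of consensus molecules, whole and not normalized, and its fraction of the library. The fraction deposited by the authors was not used, since sequences were removed first. The submitters' processing notes name the build mm10, and gene positions are from GENCODE M21 on GRCm38, the same assembly.

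Counts were summed per clonotype after removing nucleotide sequences that occurred in at least 3 mice within a tissue, as the study's written contamination rule was read. The study lists far fewer sequences as removed, so its step was not the same. The mouse was the unit of every test (5 NC, 10 NOD-FMT, 9 PBS-T). The design text of the series gives 10 PBS-T mice, and 9 were analysed here. Values over clonotypes were averaged within a mouse with equal weight. Groups were compared by exact permutation of the difference in means over all splits, and contrasts within mice by exact sign-flip permutation, two-sided, with Benjamini-Hochberg adjustment over 15 and 20 tests and a threshold of 0.05. Genes, whose names were part of the match, were tested over 78 IGHV and IGHJ genes with at least 100 LG clonotypes. Replicate numbers name mice and were not taken as pairs. HCDR3 length is given without its test, since strings were matched. Its tests remained among the 20 that were adjusted together and among the summary results counted under other settings. Wilson intervals (95%) cover counting error only.

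The members, lists and contrasts were chosen with earlier results of these data known. Named clonotypes were the 3 with the highest percent of LG counts per group and the 10 shared in most mice, with ties by summed LG counts. The tie at 5 mice left out IGHV1-55 with ARGFTY and IGHV11-2 with MRYSNYWYFDV. Named genes were those called, up to 10 by size of difference, and IGHV11-2, IGHV12-3, IGHV6-3, IGHV6-6, IGHV1-9 and 4 IGHJ genes. All 11 called genes are given. Alternatives changed the removal rule, the matching rule, the minimum counts, the depth (libraries thinned to 40105 LG and 71859 spleen counts, mean of 10 draws), the libraries and the weights. Leaving out PBS-T mouse 5 with NC mouse 2, matching without the V gene name, keeping common sequences in the mouse with most of their counts, testing genes with at least 100 spleen clonotypes as well, and leaving out LG clonotypes that the own spleen held under another V gene name, were added after seeing the data. The scripts were tested on simulated data. Python 3.11.15, numpy 2.4.6, pandas 2.3.3 and scipy 1.17.1 were used.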

Additional observations from a re-analysis of the deposited data

Results flagged for a closer look

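Among 27 groups of mice examined for a value far from the rest, 3 mice stood out, and chance flags about 1 in 20 groups. In PBS-T mouse 5, clonotypes shared between LG and spleen held 3.29% of LG counts, and the next lowest PBS-T mouse had 75.2%. In PBS-T mouse 6, they held 46.7% of spleen counts, and the next highest PBS-T mouse had 26.1%. In NOD-FMT mouse 5, the mean HCDR3 length of shared minus LG-only clonotypes was -1.37 amino acids, and the next lowest NOD-FMT mouse had -0.489. The spleen of PBS-T mouse 6 had lost 66.6% of its counts to the removal of sequences found in several mice and the LG of PBS-T mouse 5 had lost 39.8%. Without the removal the value of PBS-T mouse 5 was 2.36%. With such sequences kept in the mouse with most of their counts, it was 2.01%, and that of PBS-T mouse 6 was 81.7%. Where the V gene name was not needed for the match, PBS-T mouse 5 had 7.56%. What made these mice differ was not tested.

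The mutation contrast, mean V mutations of shared minus LG-only clonotypes in the LG, differed between groups. It was lower in NOD-FMT than in NC mice by a difference of -0.983 (adjusted p = 0.00999) and lower in PBS-T than in NC mice by a difference of -1.34 (adjusted p = 0.0375, two-sided exact permutation tests over mice). It was positive in 5 of 5 NC mice, 1 of 10 NOD-FMT mice and 1 of 9 PBS-T mice. NOD-FMT exceeded PBS-T by 0.361 (adjusted p = 0.781, exact permutation test).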

How the results depend on the processing

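Under other settings, 170 values of the summary results kept their direction and side of the threshold, 21 lost their call, 12 turned in sign and 8 counts moved by over 1.5 times. With 1 mouse left out, 300 were kept, 5 lost their call and 7 turned in sign. Keeping common sequences in the mouse with most of their counts changed no call. The LG minus spleen differences in IgA (17.7 to 41.8 percentage points) and V mutations (-1.41 to -0.332) of shared clonotypes passed the test under every setting run. Causes of the changes below were not tested.

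IgA of shared minus LG-only clonotypes lost its call with no removal of common sequences (5.21), at LG counts of at least 2 (2.44) or 5 (0.0668), in libraries that were not merged (0.513) and with weighting by counts (2.49). The mutation contrast lost its call at LG counts of at least 2 (-0.100) and in libraries that were not merged (-0.238), and its sign turned at LG counts of at least 5 (0.234) and with weighting (0.0559), without a call. Its differences from NC, for NOD-FMT and PBS-T, lost their calls at LG counts of at least 2 (-0.782 and -1.09) or 5 (-0.853 and -0.965), in libraries that were not merged (-0.633 and -1.22) and with weighting (-0.191 and -0.319), and the PBS-T difference also without PBS-T mouse 5 and NC mouse 2 (-1.12). With 1 mouse left out the PBS-T difference was -1.48 to -1.19, and without any NC mouse in turn its adjusted p was 0.0629. With LG clonotypes found in the own spleen under another IGHV name left out, the mutation contrast (-0.271) and its differences from NC (-0.637 and -1.28) lost their calls. The difference in HCDR3 length, which matching on the string can favour, was -0.103 with identical full-length sequences and -0.273 in libraries that were not merged.

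NOD-FMT minus PBS-T in percent of LG clonotypes, which never passed the test, turned negative with sequences found in 2 or more mice removed (-1.04), full-length matching (-0.349), LG counts of at least 2 (-0.0900), spleen counts of at least 2 (-0.312), thinned spleens (-2.43), libraries that were not merged (-3.89) and without PBS-T mouse 5 and NC mouse 2 (-3.23). It was highest, at 8.93, where the V gene name was not needed for the match. With 1 mouse left out it was -3.23 to 3.97. The group difference in the IgA contrast turned positive at LG counts of at least 2 (0.5677) or 5 (6.69) and with weighting (6.35).

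The 11 called genes became 6 with full-length matching, 5 at LG counts of at least 2 or 5, 7 at spleen counts of at least 2, 6 in merged and 0 in other libraries (where 9 of 68 had an unadjusted p under 0.05), 5 without PBS-T mouse 5 and NC mouse 2, and 24 with no minimum per gene. With 1 mouse left out they were 8 to 12, and IGHV3-8 and IGHV5-17 kept their calls in 10 and 8 of 24 such fits. The number tested changed as well, to 65 without PBS-T mouse 5. IGHV3-2 and IGHV8-5 had enough LG clonotypes to be tested in 22 of the 24 fits. Genes without a call changed sign. IGHJ1 was -0.596 with full-length matching and -0.0317 at LG counts of at least 5. IGHJ2 was 0.0809 with sequences found in 2 or more mice removed, 0.235 without a common string, 0.426 with full-length matching, 0.0978 with all libraries and 0.0577 with spleens thinned, 0.0669 without PBS-T mouse 5 and NC mouse 2, 0.804 without clonotypes under another IGHV name, and -0.575 to 0.136 with 1 mouse left out. IGHJ3 was -0.0935 with no removal, -0.451 at LG counts of at least 5, -0.681 in merged libraries, -0.483 without clonotypes under another IGHV name and -0.0456 to 0.645 with 1 mouse left out. At LG counts of at least 5 IGHJ4 was 1.27 and IGHV1-9 0.299, and IGHV1-9 was 0.150 at 2, 0.0385 without clonotypes under another IGHV name and -0.153 to 0.209 with 1 mouse left out. IGHV1-55 lost its call with full-length matching (0.308), with all libraries thinned (1.06) and in libraries that were not merged (1.43), and IGHV1-80 with full-length matching (0.541), at LG counts of at least 5 (0.291) and in libraries that were not merged (0.676). IGHV1-52, which was called, was -0.177 at LG counts of at least 5.

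Replicate numbers were not taken as pairs, since no label ties equal numbers to a shared source and not every correlation of deviations was over 0.1. Over 9 pairs of NOD-FMT and PBS-T mice the correlation of deviations was -0.196 to 0.107, and no mouse correlated best with its own number. Against NC it was -0.0836 to 0.168 for NOD-FMT and -0.224 to 0.207 for PBS-T, and 2 of 5 and 1 of 5 mice correlated best with their own number. With a replicate block, NOD-FMT minus PBS-T was 0.52 in log2 number, 0.0182 in percent of LG clonotypes, 10.5 in percent of LG counts, -3.04 in the IgA contrast and 0.278 in the mutation contrast, and it changed no call. Depth limits the smallest clonotypes, since 12.3% of shared clonotypes rested on 1 spleen count.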
